A study of Homo sapiens with 18 samples.

Results

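The MYC, MAX and MXD network was followed through 18 RNA-seq libraries of a human leukaemia line and a clone made from it. The network is represented by 8 genes, MYC, MAX, MXD1, MXD3, MXD4, MXI1, MNT and MLX, taken by gene symbol from the 60658 gene IDs of the deposited table. All 8 were found, and all 8 were among the 17555 genes with at least 1 FPKM (fragments per kilobase, a length-scaled measure of RNA level) in at least 3 libraries. THP1 is an acute myeloid leukaemia line of monocytic type, labelled as carrying a heterozygous NRAS-G12D mutation. B11 is 1 clone of THP1, labelled NRAS-G12V. It was given a lentiviral, doxycycline-inducible and CRISPR-resistant NRAS with the G12V mutation and GFP, selected for GFP under doxycycline, and then transduced with Cas9, a puromycin resistance gene and 2 guide RNAs placed around the NRAS start codon. The groups were B11 at 0, 1 and 10 ug/ml doxycycline and THP1 at 0, 1 and 10 ug/ml, each for 5 days and each with 3 plates, here called libraries A, B and C. THP1 carries no inducible NRAS per the labels, so its doses show what doxycycline did to the parent. All plates of a line came from 1 culture, and a p-value here covers the variation among plates alone.

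MYC is a transcription factor of the basic helix-loop-helix zipper class that binds E-box DNA as a heterodimer with MAX and activates genes of growth and ribosome production. MXD1, MXD3, MXD4, MXI1 and MNT compete for MAX, bind the same E-boxes and recruit SIN3 and histone deacetylases, which represses them. MLX is a MAX-like protein that pairs with the glucose-responsive factors MondoA and ChREBP and with some of the repressors. In myeloid cells MYC is known to fall and MXD1 to rise as cells mature.

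In short windows upstream of the start sites, the canonical E-box CACGTG, which reads the same on both strands, was present in 3 of the 7 members with a RefSeq promoter entry. These were MXD4, MNT and MLX. The same 3 were called higher in untreated B11 than in untreated THP1 at an adjusted p under 0.05. MXD1 was higher there without passing it. At 1 and 10 ug/ml MXD4 was instead called lower in B11 than in THP1. MXI1, without the motif in its windows, was called higher in B11 at both of these doses. A link between the motif and the RNA level was not tested. Windows were the 250 bases before the RefSeq start (GRCh38.p14), and 6.34% of all 35116 such windows, or 7.73% of 27305 genes, held the motif. The 27305 genes are all those with a promoter entry, expressed here or not. MYC was not matched. The stretches that carry the motif are shown with the E-box in capitals, trimmed to the bases upstream of both the RefSeq start and the outermost GENCODE start. The motif began 238 bases before the RefSeq start in MXD4, 193 bases in MNT and 50 bases in MLX. A match describes the sequence and does not show binding. The stretches are MXD4 at chr4:2262295-2262359 on the minus strand, MNT at chr17:2401119-2401310 on the minus strand and MLX at chr17:42566850-42567067 on the plus strand.
MXD4: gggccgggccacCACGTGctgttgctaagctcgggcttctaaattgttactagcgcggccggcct
MNT: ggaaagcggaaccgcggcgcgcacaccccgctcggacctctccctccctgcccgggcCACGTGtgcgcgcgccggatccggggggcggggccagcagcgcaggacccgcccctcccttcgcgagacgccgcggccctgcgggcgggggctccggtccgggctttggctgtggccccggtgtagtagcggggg
MLX: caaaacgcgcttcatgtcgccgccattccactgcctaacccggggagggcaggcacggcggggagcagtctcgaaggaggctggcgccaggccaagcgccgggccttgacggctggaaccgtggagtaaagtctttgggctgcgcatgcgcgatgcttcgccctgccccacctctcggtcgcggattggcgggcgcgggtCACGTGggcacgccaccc

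Libraries held an estimated 10.9 to 15.7 M fragments. NRAS averaged 28.0 FPKM in B11 at 10 ug/ml, 23.8 FPKM at 1 ug/ml and 20.95 FPKM in untreated B11, with transgene and edited gene not separable. In THP1 NRAS averaged 23.3, 23.4 and 24.25 FPKM at 0, 1 and 10 ug/ml. NRAS was called higher in B11 at 10 against 0 ug/ml but not at 1 against 0 ug/ml. Untreated B11 and untreated THP1 were not called different in NRAS. The myeloid markers SPI1, CD33, LYZ and ELANE were present in every group. CD14 averaged 0.841 FPKM in untreated B11 and 11.3 FPKM in untreated THP1, and ITGAM 3.37 and 19.4 FPKM. The T cell, B cell, erythroid, platelet and epithelial markers CD3E, MS4A1, HBB, PPBP and KRT5 were at 0 in all 18 libraries, and the summed level of 10 markers of other cell types was 5.83 to 11.8 FPKM in untreated B11 and 1.11 to 6.94 FPKM in the other groups. Of those 10 markers ALB was called lower in B11 at 10 against 0 ug/ml. The summed level of 10 myeloid markers was 9048 to 10800 FPKM in untreated B11, 4323 to 4718 FPKM in B11 at 1 ug/ml and 3823 to 3857 FPKM in B11 at 10 ug/ml, against 2950 to 3624 FPKM across the THP1 libraries. The sum was mostly ELANE (2949 FPKM in B11 at 10 ug/ml and 6490 FPKM in untreated B11) and LYZ (294 and 2781 FPKM). Between untreated B11 and untreated THP1, 5 of the 10 were called higher in B11 and 3 lower, beside 23.5% and 23.6% of all genes. In B11 at 10 against 0 ug/ml, 21.3% of all genes were lower and 21.6% higher. Of the 10 markers, 5 were called lower there and 2, ITGAM and FCGR1A, higher. The other 3 markers were not called, SPI1 among them. Their part in the results on the network was not tested.

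MYC stood at 75.1, 68.9 and 65.98 FPKM in the 3 untreated B11 libraries, at 108, 114 and 112 FPKM at 1 ug/ml and at 111, 111 and 113 FPKM at 10 ug/ml. In THP1 it was at 135, 143 and 134 FPKM without doxycycline, 138, 138 and 127 FPKM at 1 ug/ml and 161, 154 and 147 FPKM at 10 ug/ml. In bulk RNA, fewer cells that express a gene and less RNA per cell cannot be told apart. Every treated B11 library lay above every untreated one, and every B11 library lay below every THP1 library. Changes are on the log2(FPKM + 1) scale with the standard error (SE), and called means an adjusted p under 0.05 in a limma fit over all genes. In B11, MYC rose by 0.67 (adjusted p = 2.35e-07, SE 0.06) at 10 against 0 ug/ml and by 0.67 (adjusted p = 2.99e-07, SE 0.06) at 1 against 0 ug/ml. The 2 doses gave nearly the same level, with a difference of -0.00 (95% interval -0.12 to 0.12, adjusted p = 0.997). In THP1 the 3 libraries at 10 ug/ml lay above all others, but the difference of 0.16 (adjusted p = 0.281, SE 0.06) against 0 ug/ml was not called. The dose response of MYC was larger in B11 than in THP1 by 0.50 (adjusted p = 0.000241, SE 0.08) at 10 ug/ml and by 0.70 (adjusted p = 1.37e-05, SE 0.08) at 1 ug/ml.

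Clone and parent differed in MYC level at each dose. MYC averaged 69.99 ± 4.68 FPKM in untreated B11 and 137 ± 4.42 FPKM in untreated THP1 (SD, n = 3 each), a difference of -0.97 (adjusted p = 3.32e-09, SE 0.06). At 1 ug/ml the difference was -0.26 (adjusted p = 0.00266, SE 0.06) and at 10 ug/ml it was -0.46 (adjusted p = 1.96e-05, SE 0.06). In order of mean level, THP1 at 10 ug/ml came first and did not overlap the rest. THP1 at 0 and 1 ug/ml followed and overlapped each other, then B11 at 1 and 10 ug/ml, which overlapped, and then untreated B11 alone.

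**Figure D1:**
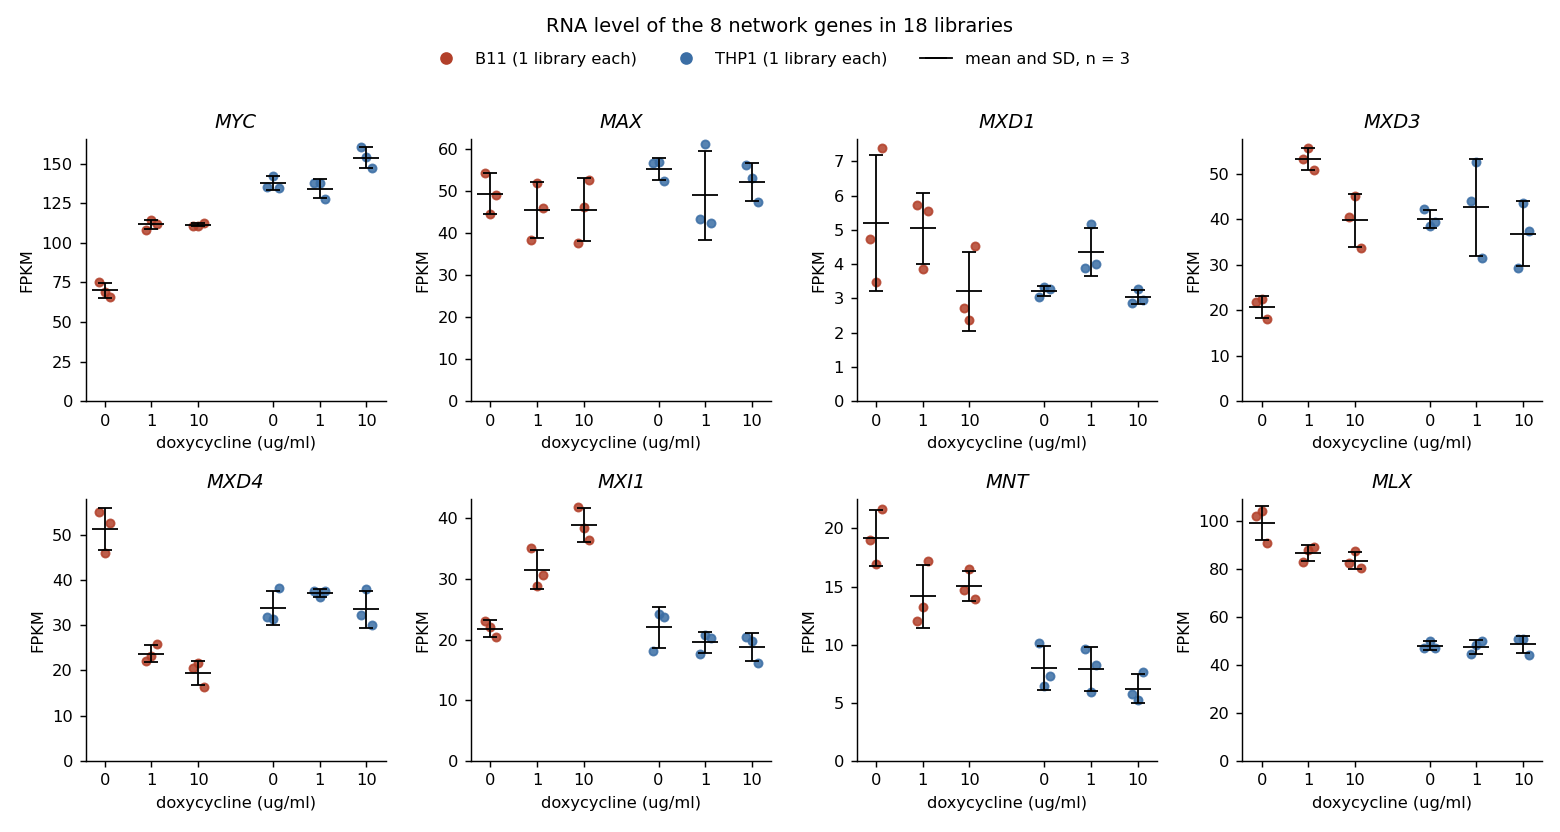
FPKM of the 8 genes (vertical axes, each from 0) by doxycycline dose (horizontal axes, ug/ml), with B11 on the left and THP1 on the right of each panel. Points are libraries and bars are the mean and SD of 3. MYC is lowest in untreated B11 (65.98 to 75.1 FPKM), MXD4 is highest there (46.0 to 55.1 FPKM), and MLX and MNT are higher in every B11 library than in any THP1 library.

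MAX, the partner that MYC and the repressors share, was not called changed in any of the 12 comparisons. Its level was 37.8 to 54.5 FPKM in the 9 B11 libraries and 42.5 to 61.3 FPKM in the 9 THP1 libraries. The groups overlapped in each comparison within a line or at equal dose. The 95% interval of the MAX difference in B11 at 10 against 0 ug/ml was -0.44 to 0.20. The ratio of MAX to MYC RNA averaged 0.706, 0.407 and 0.409 in B11 at 0, 1 and 10 ug/ml, against 0.403, 0.365 and 0.339 in THP1.

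Across the 8 members, 5 were called in B11 at 10 against 0 ug/ml, 3 higher and 2 lower. In this comparison 42.8% of all genes tested were called, 21.6% higher and 21.3% lower. At 1 against 0 ug/ml, 4 members were called, where 37.1% of genes were called. Of those 4, MYC, MXD3 and MXI1 were higher, beside 19.8% of all genes higher. No member was called between 10 and 1 ug/ml, where 12.8% of all genes were called and 7.12% were lower. At unadjusted p under 0.05, MXD1, MXD3 and MXD4 were lower and MXI1 was higher at 10 than at 1 ug/ml. In THP1 no member was called at 10 against 0, at 1 against 0 or at 10 against 1 ug/ml, where 1.02%, 0.0114% and 0.296% of genes were called. Between B11 and THP1, 5 members were called at each dose, beside 47.1% of all genes at 0 ug/ml, 29.8% at 1 ug/ml and 32.4% at 10 ug/ml. At 0 ug/ml MXD4, MNT and MLX were higher (23.5% of all genes were) and MYC and MXD3 were lower (23.6% of all genes were). The dose response differed between the lines for 4 members, MYC, MXD3, MXI1 and MXD4, at 10 against 0 ug/ml, where 29.8% of genes were called. It differed for the same 4 at 1 against 0 ug/ml, where 25.9% were called, and for none at 10 against 1 ug/ml, where 4.64% were called. Between the lines at 1 and 10 ug/ml 5 of 8 members called is a larger share than these, but with 8 members chosen by name nothing is read from the counts about the network as a whole.

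**Figure D2:**
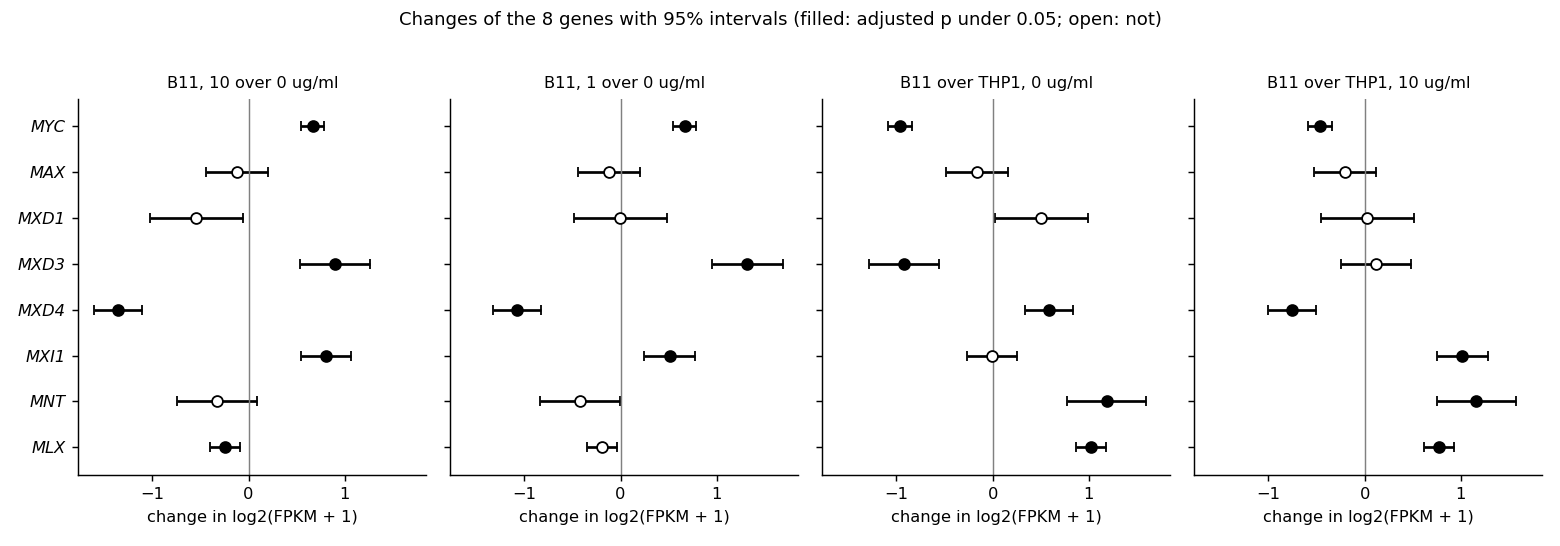
Change of each of the 8 genes (rows) in 4 comparisons (panels), as a difference of log2(FPKM + 1) with its 95% interval on the horizontal axis. Filled points passed an adjusted p of 0.05 and open points did not. MYC changed by 0.67 and MXD4 by -1.36 in B11 at 10 over 0 ug/ml, and MNT and MLX were higher in B11 than in THP1 at both doses shown.

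MXD4, a repressor that competes with MYC for MAX, moved opposite to MYC in B11. It was at 55.1, 46.0 and 52.8 FPKM in untreated B11, 22.1, 23.2 and 25.8 FPKM at 1 ug/ml and 20.5, 21.6 and 16.4 FPKM at 10 ug/ml. The 3 groups did not overlap. In THP1 MXD4 was at 31.3 to 38.2 FPKM without doxycycline, 36.2 to 37.7 FPKM at 1 ug/ml and 30.2 to 38.0 FPKM at 10 ug/ml, and the groups overlapped. MXD4 fell by 1.36 (adjusted p = 2.48e-07, SE 0.12) in B11 at 10 against 0 ug/ml and by 1.08 (adjusted p = 3.58e-06, SE 0.12) at 1 against 0 ug/ml. Relative to THP1 at the same dose it was higher by 0.59 (adjusted p = 0.000718, SE 0.12) at 0 ug/ml, but differed by -0.63 (adjusted p = 0.000859, SE 0.12) at 1 ug/ml and by -0.75 (adjusted p = 0.000157, SE 0.12) at 10 ug/ml. MXD4 was thus the only one of the 8 genes called on opposite sides of THP1 at different doses. The response to 10 ug/ml was lower in B11 than in THP1 by -1.34 (adjusted p = 2.14e-05, SE 0.17).

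MXI1, also known as MXD2 and a repressor of the same family, rose with dose in B11. It was at 23.0, 22.1 and 20.4 FPKM in untreated B11, 35.1, 28.9 and 30.7 FPKM at 1 ug/ml and 41.9, 38.4 and 36.4 FPKM at 10 ug/ml, with no overlap between the 3 groups. In THP1 it was at 18.2 to 24.3, 17.6 to 20.8 and 16.1 to 20.4 FPKM at 0, 1 and 10 ug/ml, and neighbouring doses overlapped. The change in B11 was 0.81 (adjusted p = 8.09e-05, SE 0.12) at 10 and 0.51 (adjusted p = 0.00413, SE 0.12) at 1 against 0 ug/ml, and 0.30 (adjusted p = 0.138, SE 0.12) at 10 against 1 ug/ml, which was not called. Untreated B11 and untreated THP1 overlapped, with a difference of -0.01 (95% interval -0.27 to 0.26). At 10 ug/ml MXI1 was higher in B11 than in THP1 by 1.02 (adjusted p = 1.53e-05, SE 0.12), and at 1 ug/ml by 0.66 (adjusted p = 0.000806, SE 0.12).

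MXD3, a family member known for expression in dividing cells, was at 21.9, 22.5 and 18.02 FPKM in untreated B11, 53.2, 55.7 and 50.8 FPKM at 1 ug/ml and 40.4, 45.1 and 33.7 FPKM at 10 ug/ml. In THP1 it ranged from 38.4 to 42.3 FPKM, from 31.4 to 52.5 FPKM and from 29.3 to 43.7 FPKM at 0, 1 and 10 ug/ml. Untreated B11 lay below all other groups, and the level at 1 ug/ml lay above that at 10 ug/ml. MXD3 rose by 0.90 (adjusted p = 0.000577, SE 0.17) at 10 and by 1.32 (adjusted p = 2.14e-05, SE 0.17) at 1 against 0 ug/ml in B11, and the difference of -0.42 (adjusted p = 0.128, SE 0.17) at 10 against 1 ug/ml was not called. In untreated cells it was lower in B11 than in THP1 by -0.92 (adjusted p = 0.000418, SE 0.17), and in treated cells the lines were not called different, except at 1 ug/ml without library B of THP1 (MXD3 then differed by 0.51, adjusted p = 0.0454). MXD3 shares 22.5% of its exonic bases with PRELID1 on the other strand and 17.97% with RAB24 on the same strand, and the strandedness of the libraries is not stated in the labels. PRELID1 averaged 266 FPKM in B11 at 10 ug/ml and 179 FPKM in untreated B11 and moved the same way as MXD3 (0.57, adjusted p = 1.86e-05, SE 0.07), while RAB24 averaged 72.6 and 118 FPKM and fell by 0.70 (adjusted p = 5.43e-07, SE 0.06). At 10 against 1 ug/ml RAB24 differed by -0.43 (adjusted p = 0.000522, SE 0.06) and PRELID1 by 0.01 (adjusted p = 0.951, SE 0.07). The part of PRELID1 and RAB24 reads in the MXD3 value was not tested.

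MNT, a repressor known to be present in resting and dividing cells alike, stood apart by cell line more than by dose. It was at 19.0, 16.9 and 21.7 FPKM in untreated B11, 12.1, 13.2 and 17.2 FPKM at 1 ug/ml and 14.7, 16.5 and 13.9 FPKM at 10 ug/ml. In THP1 it was at 10.1, 6.47 and 7.32 FPKM, at 9.62, 5.90 and 8.28 FPKM and at 5.74, 5.25 and 7.64 FPKM at 0, 1 and 10 ug/ml. All 9 B11 libraries lay above all 9 THP1 libraries. The difference between B11 and THP1 was 1.19 (adjusted p = 0.000129, SE 0.19) at 0 ug/ml, 0.77 (adjusted p = 0.00726, SE 0.19) at 1 ug/ml and 1.16 (adjusted p = 0.000287, SE 0.19) at 10 ug/ml. The call at 1 ug/ml was lost without libraries B and C of B11 at that dose (0.57, adjusted p = 0.191). Within B11 the libraries at 10 ug/ml lay below those at 0 ug/ml, but the difference of -0.33 (adjusted p = 0.191, SE 0.19) was not called. An antisense transcript shares 12.2% of the MNT exonic bases and was at 4.35 FPKM at most.

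MXD1, the member best known from myeloid maturation, was the lowest of the 8 genes in every group. It was at 4.73, 3.48 and 7.38 FPKM in untreated B11, 5.73, 3.86 and 5.56 FPKM at 1 ug/ml and 2.72, 2.36 and 4.53 FPKM at 10 ug/ml, and the groups overlapped. In THP1 it was at 2.88 to 5.18 FPKM, and untreated THP1 lay below untreated B11 in every library. The difference of -0.55 (adjusted p = 0.065, SE 0.23) in B11 at 10 against 0 ug/ml and that of 0.51 (adjusted p = 0.0799, SE 0.23) between untreated B11 and untreated THP1 were not called. The first was -0.30 (adjusted p = 0.296) without library C at 0 ug/ml, and was called without library C at 10 ug/ml (-0.76, adjusted p = 0.0169) and without library B at 0 ug/ml (-0.76, adjusted p = 0.0172). The MXD1 difference from THP1 was 0.26 (adjusted p = 0.354) without library C of untreated B11, and was called without library B (0.72, adjusted p = 0.0205). MXD1 shares 3.73% of its exonic bases with SNRNP27 on the same strand, and SNRNP27 was at 27.4 to 42.9 FPKM. SNRNP27 rose by 0.37 (adjusted p = 0.00694, SE 0.10) in B11 at 10 against 0 ug/ml. The part of SNRNP27 reads in the MXD1 value was not tested.

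Summed over MXD1, MXD3, MXD4, MXI1 and MNT, repressor RNA changed less than its make-up. The sum averaged 118 ± 6.60 FPKM in untreated B11, 128 ± 2.69 FPKM at 1 ug/ml and 116 ± 10.1 FPKM at 10 ug/ml, against 107 ± 4.27, 112 ± 9.55 and 98.3 ± 10.3 FPKM in THP1 at 0, 1 and 10 ug/ml (SD, n = 3 each). MXD4 made up 43.3%, 18.6% and 16.7% of that sum in B11 at 0, 1 and 10 ug/ml, and between 31.5% and 34.1% in THP1. MXD3 made up 17.6%, 41.7% and 34.0% in B11 at 0, 1 and 10 ug/ml, and MXI1 made up 18.5%, 24.7% and 33.5%. The ratio of MXI1 to MXD4 averaged 0.428, 1.34 and 2.02 in B11 at 0, 1 and 10 ug/ml, and 0.655, 0.528 and 0.562 in THP1. These sums and ratios are descriptions over members chosen for their names and carry no test, and they are of RNA and not of protein. The exonic bases that MXD3 shares with PRELID1 and RAB24, and those that MXD1 shares with SNRNP27, limit the sum, the shares and the ratio to MYC below.

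Set against MYC, the repressor sum exceeded MYC in all 3 untreated B11 libraries, at 1.61 to 1.82 FPKM of repressor per FPKM of MYC. The ratio was 1.09 to 1.18 at 1 ug/ml and 0.932 to 1.12 at 10 ug/ml. In THP1 it was 0.729 to 0.832 at 0 ug/ml, 0.796 to 0.875 at 1 ug/ml and 0.565 to 0.714 at 10 ug/ml. No B11 library overlapped any THP1 library in this ratio, and untreated B11 lay above treated B11.

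**Figure D3:**
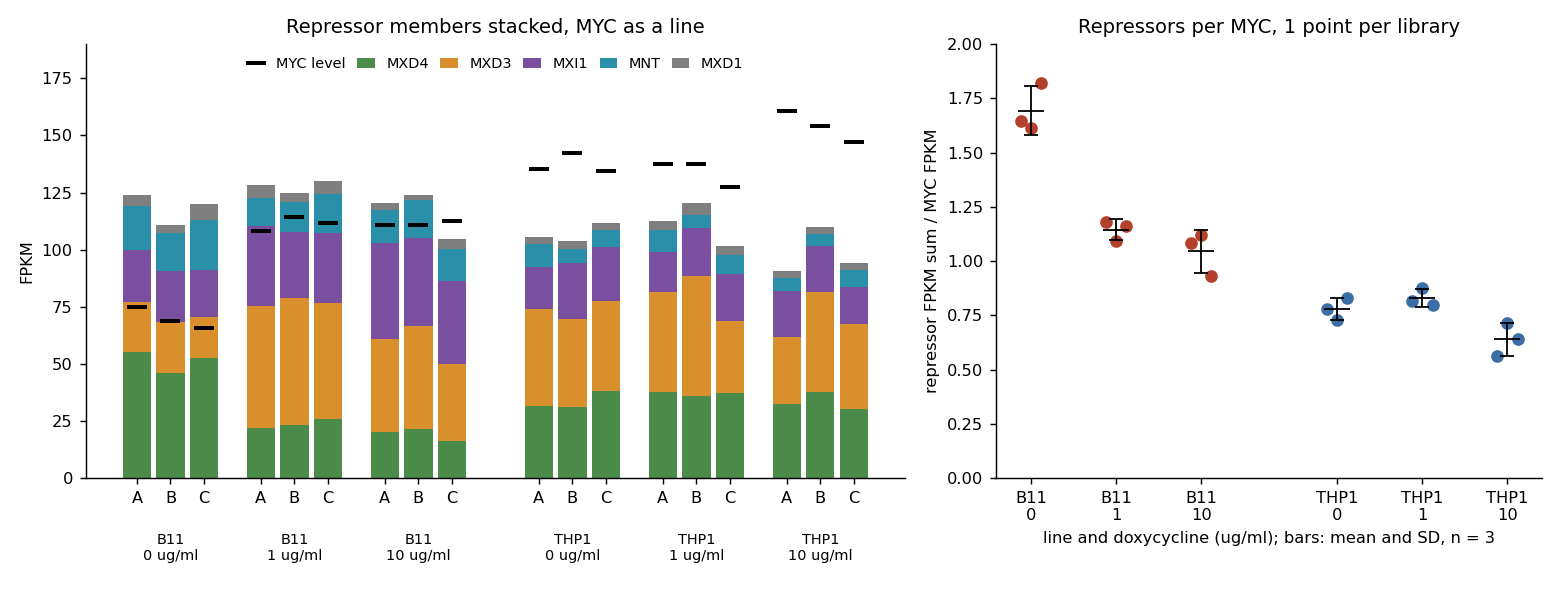
Left, FPKM of the 5 repressors stacked for each library (A, B and C of each group), with the MYC level as a black line. Right, the repressor sum divided by MYC, with 1 point per library and the mean and SD of 3. MXD4 is the largest block in untreated B11 (41.5 to 44.5% of the stack), and the ratio averages 1.69 there, 1.05 in B11 at 10 ug/ml and 0.78 in untreated THP1.

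MLX was the most abundant of the 8 genes in untreated B11, above MYC, and MYC was the most abundant in the other 5 groups. MLX was at 102, 104 and 91.1 FPKM in untreated B11, 82.97, 88.1 and 89.3 FPKM at 1 ug/ml and 82.6, 87.5 and 80.5 FPKM at 10 ug/ml. In THP1 it stayed between 44.3 and 50.8 FPKM in all 9 libraries. Every B11 library was above every THP1 library. B11 exceeded THP1 by 1.03 (adjusted p = 2.69e-08, SE 0.07) at 0 ug/ml, 0.86 (adjusted p = 6.89e-07, SE 0.07) at 1 ug/ml and 0.77 (adjusted p = 1.53e-06, SE 0.07) at 10 ug/ml. Within B11, MLX was lower at 10 than at 0 ug/ml by -0.24 (adjusted p = 0.0142, SE 0.07), a call lost with TPM scaling (-0.17, adjusted p = 0.0561) and without library A or B at 0 ug/ml or library C at 10 ug/ml (adjusted p = 0.0504, 0.0581 and 0.055). MLX shares 18.1% of its exonic bases with PSMC3IP on the other strand. PSMC3IP averaged 2.92 FPKM in untreated B11 and 16.4 FPKM in untreated THP1, the opposite direction to MLX. At 1 ug/ml it averaged 22.2 FPKM in B11 and 18.1 FPKM in THP1, the same direction as MLX, though not called. At 10 ug/ml PSMC3IP averaged 12.8 FPKM in B11 and 16.6 FPKM in THP1, also not called. The part of PSMC3IP reads in the MLX value was not tested.

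MLXIP encodes MondoA, the MLX partner that carries nuclear glucose sensing, and it moved with dose in B11 by more than MLX. It was at 38.6, 39.0 and 37.1 FPKM in untreated B11, 19.6, 17.5 and 20.2 FPKM at 1 ug/ml and 17.4, 17.2 and 19.7 FPKM at 10 ug/ml, against 16.7 to 23.0 FPKM over all THP1 libraries. It fell by 1.04 (adjusted p = 4.88e-07, SE 0.10) at 10 against 0 ug/ml in B11. Of 5 tested genes known as targets of MondoA and MLX, 3 were lower and 1 was higher in this comparison, where 21.3% of all genes were lower and 21.6% higher, with a median change of -1.42 beside -0.02 over all genes. The lower ones were TXNIP, an inhibitor of glucose uptake, at 111 FPKM in B11 at 10 ug/ml and 713 FPKM in untreated B11, the related arrestin ARRDC4 (-1.89, adjusted p = 1.26e-08, SE 0.12) and the transcription factor KLF10 (-1.42, adjusted p = 3.64e-06, SE 0.16). The 3 lower targets differed between the 2 doses, and MLXIP was not called there. At 10 against 1 ug/ml MLXIP averaged 18.1 and 19.1 FPKM, while TXNIP differed by -1.86 (adjusted p = 1.12e-08, SE 0.09), ARRDC4 by -1.49 (adjusted p = 2.63e-06, SE 0.12) and KLF10 by -1.11 (adjusted p = 0.000308, SE 0.16). In THP1 at 10 against 0 ug/ml, where 1.02% of all genes were called, none of the 5 was. TXNIP differed by -0.40 there (adjusted p = 0.0547, SE 0.09).

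**Figure D4:**
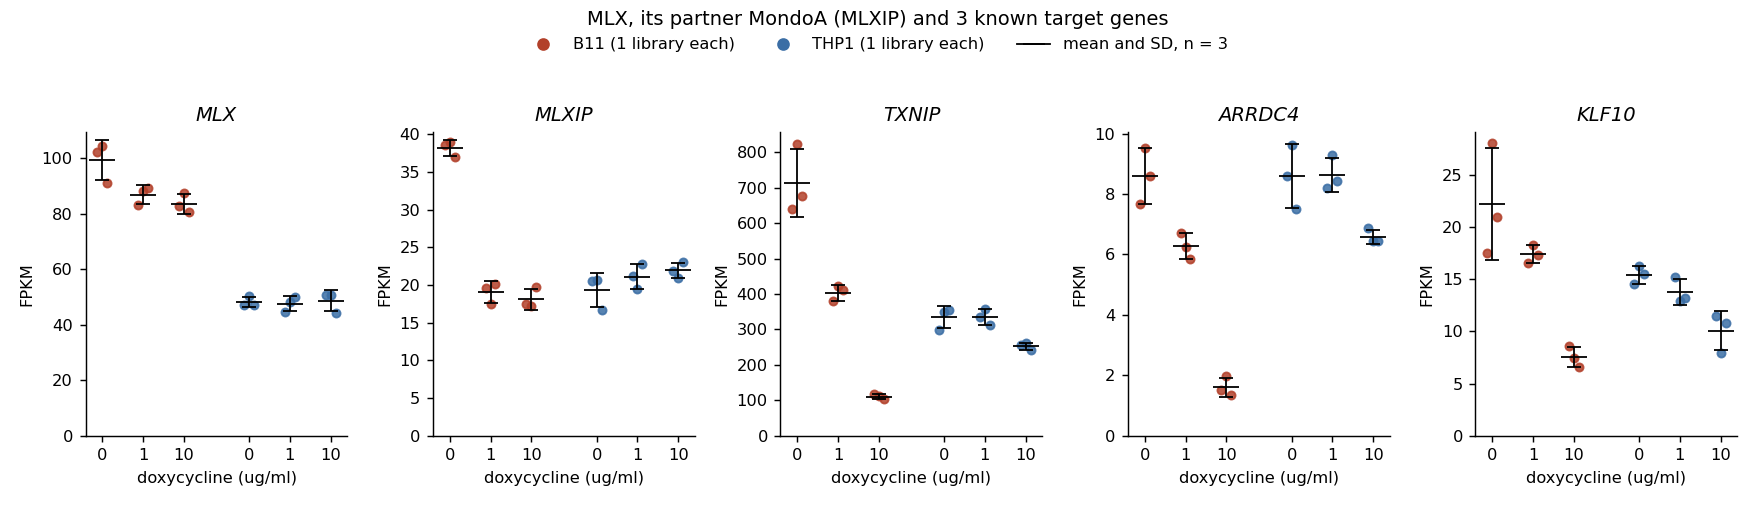
FPKM (vertical axes, each from 0) of MLX, MLXIP and 3 known target genes by doxycycline dose (horizontal axes, ug/ml), B11 left and THP1 right. Points are libraries and bars are the mean and SD of 3. MLXIP drops to 19.1 FPKM at 1 ug/ml in B11 and is level from there, while TXNIP is at 713, 404 and 111 FPKM at 0, 1 and 10 ug/ml.

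Among the other relatives, MYCN was at 0 in all 18 libraries. MYCL, a MYC paralog, averaged 21.8, 25.0 and 25.2 FPKM in B11 at 0, 1 and 10 ug/ml, and 20.98, 20.8 and 14.7 FPKM in THP1, and was higher in B11 than in THP1 at 10 ug/ml by 0.74 (adjusted p = 0.000418, SE 0.13). MGA, a large MAX partner that acts as a repressor, averaged 5.42 FPKM in B11 at 10 ug/ml and 10.2 FPKM in untreated B11, a change of -0.80 (adjusted p = 0.00649, SE 0.21). Of the 5 tested paralogs and partners, MLXIP and MGA were the 2 called in this comparison, near the share of all genes called (42.8%).

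Cofactors were followed in lists chosen by function, to be read beside 21.6% of all genes higher and 21.3% lower in B11 at 10 against 0 ug/ml. Of 12 coactivators that MYC recruits, 3 rose and none fell in B11 at 10 against 0 ug/ml, with a median of 0.23 beside -0.02 over all genes. The 3 make up 25.0% of the list, near the share of all genes. They included the ATPases RUVBL2 (1.21, adjusted p = 4.8e-10, SE 0.06) and RUVBL1 (1.23, adjusted p = 4.08e-09, SE 0.07). Of 11 genes of the SIN3, NCOR and histone deacetylase corepressors, 4 rose (36.4%) and 2 fell (18.2%). HDAC2 changed by 0.63 (adjusted p = 2.84e-06, SE 0.07) and HDAC1 by -0.49 (adjusted p = 0.000721, SE 0.10), while the scaffold SIN3B changed by -0.84 (adjusted p = 0.000119, SE 0.13). Of 10 genes that act on MYC protein stability, 5 rose and none fell, with a median of 0.61 beside -0.02. AURKA, a mitotic kinase that can stabilise MYC proteins, averaged 57.3 FPKM in B11 at 10 ug/ml and 13.4 FPKM in untreated B11. SKP2, a ubiquitin ligase subunit for MYC, changed by 1.31 (adjusted p = 1.53e-07, SE 0.11), and CIP2A, an inhibitor of the phosphatase PP2A, by 1.78 (adjusted p = 0.000286, SE 0.31). FBXW7, the ligase that targets phosphorylated MYC for degradation, was not called (0.16, 95% interval -0.24 to 0.56).

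Genes known to be activated by MYC rose with MYC in B11 against untreated cells, and their differences from THP1 were not alike. Of the 29 tested, 27 rose and none fell at 10 against 0 ug/ml, where 21.6% of all genes were called higher and 21.3% lower, with a median of 0.86 beside -0.02 over all genes. The nucleolar protein NCL averaged 678 ± 22.9 FPKM in B11 at 10 ug/ml and 393 ± 5.13 FPKM in untreated B11, and CDC25A, a phosphatase of cell cycle entry, averaged 11.7 ± 1.85 and 1.14 ± 0.389 FPKM (SD, n = 3 each). NOP2 (0.03, adjusted p = 0.827) and TFRC (0.57, adjusted p = 0.092) were not called. At 10 against 1 ug/ml, where MYC differed by -0.00, 6 of the 29 were called higher and 3 lower. In that comparison 12.8% of all genes were called, 5.69% higher and 7.12% lower. TERT, the telomerase subunit, averaged 29.9 FPKM in B11 at 10 ug/ml and 14.4 FPKM at 1 ug/ml (1.00, adjusted p = 0.00316, SE 0.19). None of the 29 was called lower without library A or C at 10 ug/ml or library B at 1 ug/ml, or with only the B11 libraries in the fit. In untreated cells 25 of the 29 were lower and 2, NOP2 and EIF4A1, were higher in B11 than in THP1, where 23.6% of all genes were lower and 23.5% higher, with a median of -1.07 beside 0.02 over all genes. At 10 ug/ml 11 were lower and 7 higher, where 32.4% of all genes were called, 16% lower and 16.4% higher. The median was -0.17 beside -0.02, and MYC itself differed by -0.46. The 7 that were higher included TERT (2.76, adjusted p = 6.38e-08, SE 0.19), and EIF4A1, a translation initiation helicase (0.74, adjusted p = 1.37e-06, SE 0.07). NOP56 (-0.82, adjusted p = 1.91e-07, SE 0.06) and NCL (-0.53, adjusted p = 7.05e-07, SE 0.05) were among the 11 lower ones. In THP1 none of the 29 was called at 10 against 0 ug/ml, where 1.02% of all genes were called. The response was larger in B11 for 25 and smaller for none. For that difference in response 29.8% of all genes were called, 16% higher and 13.8% lower. The E-box CACGTG was in the upstream window of 7 of the 25 genes with a promoter entry, or 28.0%, beside 7.73% of all genes. That share is over all genes with a promoter entry, expressed here or not, so it is no matched baseline. The difference in share was not tested. The share was 33.3% of 9 coactivators, 37.5% of 8 genes for MYC protein stability and 50.0% of 4 MLX partner targets. It was 11.1% of 9 corepressors. It was 0 for 6 paralogs and partners, 4 genes on the list for repression by MYC, 6 myeloid markers and 3 markers of other cell types.

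**Figure D5:**
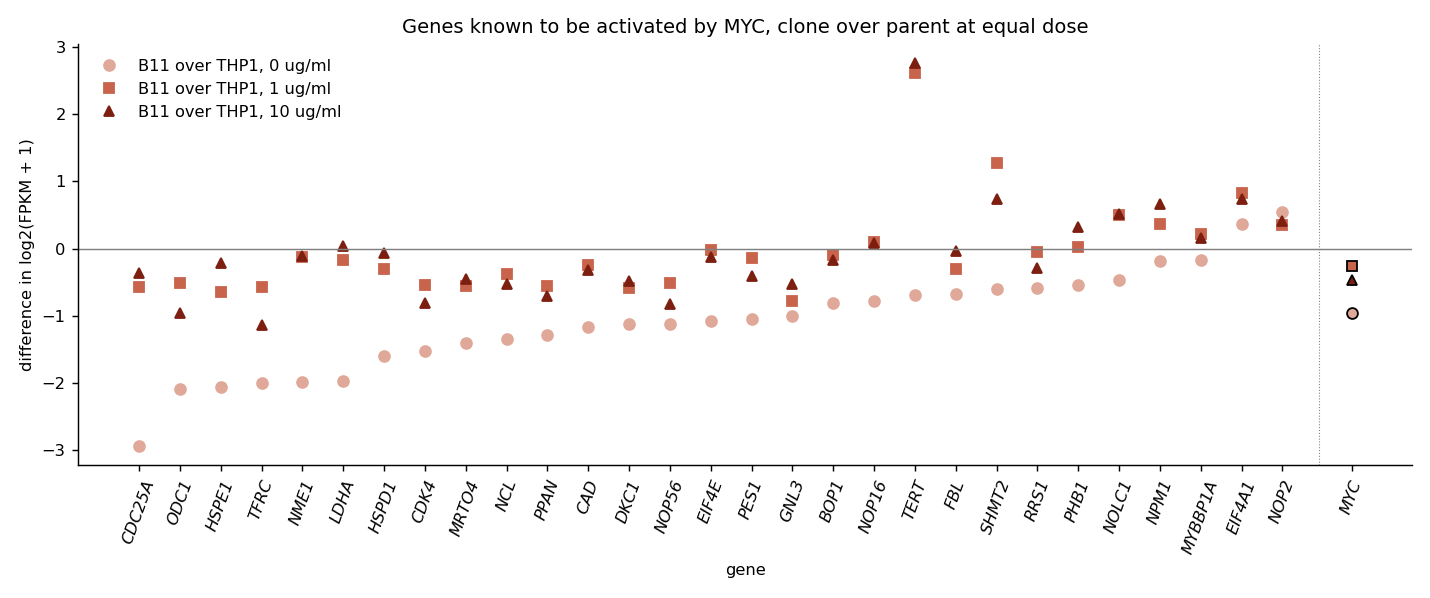
Difference between B11 and THP1 in log2(FPKM + 1) at 0, 1 and 10 ug/ml (circles, squares and triangles) for 29 genes known to be activated by MYC, ordered by the difference at 0 ug/ml, with MYC itself at the right. At 0 ug/ml 25 of the 29 are called lower in B11, and at 10 ug/ml the points spread to both sides of 0, with TERT at 2.76.

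Of 8 tested genes on the list for repression by MYC, 1 rose (12.5%) and 2 fell (25.0%) in B11 at 10 against 0 ug/ml. These shares were near the 21.6% and 21.3% of all genes. The 8 include ZBTB17 (MIZ1), the factor with which MYC represses such genes, and ZBTB17 was not called. The cell cycle inhibitor CDKN1A averaged 10.4, 57.3 and 29.5 FPKM in B11 at 0, 1 and 10 ug/ml, and rose at 10 against 0 ug/ml as MYC did (1.41, adjusted p = 1.14e-07, SE 0.11). The myeloid factors CEBPA (-0.59, adjusted p = 6.75e-07, SE 0.06) and CEBPD (-0.85, adjusted p = 0.000135, SE 0.14) fell. In THP1 at 10 against 0 ug/ml CDKN1A (-0.87, adjusted p = 0.0014, SE 0.11) and NDRG1, a stress-induced gene (-1.25, adjusted p = 0.0136, SE 0.22), were lower, with MYC not called. Of all genes 0.923% were called lower in that comparison. The NDRG1 call was lost without library B or C of either THP1 group.

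The genes most like each member were taken as those with the highest Pearson r over the 18 libraries among genes reaching a mean of 5 FPKM. The 18 points share 2 lines and 3 doses and are not independent, and r is given as a description without a test. For MYC they were AGMAT, IPO4 and MYL9 (r of 0.98 each), with r of 0.99, 0.98 and 0.97 over the 9 B11 libraries and 0.54, 0.66 and 0.76 over the 9 THP1 libraries. For MXD4 they were ARHGEF40, PLD4 and AOC1 (0.97, 0.96 and 0.96), with 0.99, 0.98 and 0.98 in B11 and 0.48, 0.54 and 0.35 in THP1. For MLX they were PPP1R11, PWWP2B and CHRNB1 (0.98 each), where r in B11 was lower, at 0.84, 0.66 and 0.59. For MXI1 they were KIRREL2, SLC25A39 and SUB1 (0.95, 0.95 and 0.94), and for MXD3 SYNE3, MSN and NONO (0.92, 0.91 and 0.91). For MNT they were CAST, ACADS and NOXA1 (0.94 each). MAX had no gene above 0.74 (PCGF3), and MXD1 reached 0.85 with BLOC1S2.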

How the data were processed

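Total RNA of 18 plates was sequenced. The submitters' processing notes name HISAT2, Cuffnorm and the GRCh38 build, with versions, strand setting and scaling option not given in the sources used here. No header gives the unit of the deposited values. They were taken as FPKM, made by the authors with Cuffnorm per those notes, since Cuffnorm writes that unit and they summed to 1.01 to 1.20 M per library. Symbols and coordinates came from GENCODE release 29. Depth was estimated from the smallest values of 1261 genes with 1 transcript.

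The filter was 1 FPKM or more in 3 or more libraries. The 6 group means of log2(FPKM + 1), which understates changes of low genes, were fitted with limma 3.58.1 in R 4.3.3 (12 residual degrees of freedom, intensity trend), with 12 comparisons and Benjamini-Hochberg adjustment over all 17555 genes in each. The fit was tested on simulated data. Replicate libraries correlated at r of 0.938 to 0.957 and none was treated as a duplicate. Replicate letters did not pair libraries, and the labels give no batch. The members and gene lists were chosen with earlier results of these data known. From each list up to 4 called genes with the smallest p were named, and other genes named (HDAC1, CIP2A, FBXW7, MGA, MYCL, TFRC and NOP2 among them) were chosen after their values were seen. Single genes that the lists count but the text does not name are not reported here. Alternatives covered the pseudocount, filter, scaling, libraries in the fit, the replicate letter and left-out libraries. Plots used Python 3.11.15 and matplotlib 3.10.9.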

Additional observations from a re-analysis of the deposited data

Results flagged for a closer look

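Of the 8 genes, 4 had a dose response in B11 that differed from that in THP1 by limma's interaction term, at both doses. The value is the response in B11 minus that in THP1, as a difference of log2(FPKM + 1). For MYC it was 0.50 at 10 and 0.70 at 1 against 0 ug/ml, and for MXD3 it was 1.03 and 1.26. For MXI1 it was 1.02 and 0.67, and for MXD4 it was -1.34 and -1.22. The largest adjusted p among these was 0.0101, for MXI1 at 1 ug/ml. MLX missed the threshold at 10 against 0 ug/ml (-0.26, adjusted p = 0.0777).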

How the results depend on the processing

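The number of members called was within 1 of the value given in each of the 12 comparisons under every alternative run: with each library left out in turn it was 4 to 5 in B11 at 10 against 0 ug/ml, 4 to 5 at 1 against 0 ug/ml, 5 to 6 between B11 and THP1 at 0 and at 1 ug/ml, and 0 in THP1. MYC, MXD3, MXD4 and MXI1 kept their calls in B11 at both doses in all 26 alternatives. With the replicate letter as a block (replicate block) the counts were 5 in B11 at 10 against 0 ug/ml and 4 at 1 against 0 ug/ml, and no member's call changed, but same-letter libraries did not deviate together (median correlation -0.008). MLX was called in B11 at 1 against 0 ug/ml (adjusted p = 0.0555 as given) in 3 alternatives, and its dose response differed between the lines at 10 ug/ml in 2. With only library A kept of B11 at 1 ug/ml (below, without B and C), which assumes that the lone library varies like the others, all-gene counts were 4071 against 6516 in B11 at 1 against 0 ug/ml, 611 against 2249 at 10 against 1 ug/ml, 2704 against 5231 between the lines at 1 ug/ml and 232 against 814 for the difference in response at 10 against 1 ug/ml. In THP1 the counts rest on few genes: at 10 against 0 ug/ml 179 genes were called, 119 with only the groups compared and 69 to 217 with 1 library left out, and at 10 against 1 ug/ml 52 were called, 31 with a pseudocount of 0.1, 34 without a filter, 18 with the replicate block and 13 (without library C at 10 ug/ml) to 112 with 1 library left out. At 1 against 0 ug/ml 2 were called, 23 without a filter, 0 with the replicate block and 0 to 6 with 1 library left out. Counts at 10 against 1 ug/ml also dropped to 1482 in B11 without its library C at 10 ug/ml, and to 502 for the difference in response without library C of B11 at 1 ug/ml. TPM scaling gave 3258 genes higher and 4879 lower in B11 than in THP1 at 0 ug/ml, against 4122 and 4147 as given, with a median over all genes of -0.08 against 0.02 as given, and turned the direction of no called member.

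Among the member changes followed through the alternatives, signs turned only for values near 0 that were not called, and the cause was not tested. Some changes were not followed in this way. For the difference in response against 0 ug/ml these were MAX, MNT and MXD1 at both doses. At 10 against 1 ug/ml they were all members but MYC, in THP1 and for the difference in response. MXD1 in B11 at 1 against 0 ug/ml was 0.0036 with a pseudocount of 0.1, 0.0083 with the median of ratios, 0.0595 with TPM and 0.1669 without B and C, and -0.2118 to 0.2396 with 1 left out. MYC in B11 at 10 against 1 ug/ml was 0.0144 with the median of ratios, 1e-04 with TPM, 0.039 without B and C and -0.022 to 0.0164 with 1 left out, and MLX was 0.0089 without B and C. MXD1 in B11 against THP1 at 10 ug/ml was -0.0266 with TPM. With 1 library left out, MAX ranged from -0.2321 to 0.0042 in B11 at 10 against 0 ug/ml and from -0.1125 to 0.127 at 10 against 1 ug/ml, where MNT ranged from -0.0076 to 0.2314. In THP1 at 10 against 0 ug/ml MXD3 ranged from -0.2647 to 0.0143, MXD4 from -0.1047 to 0.0757 and MLX from -0.0193 to 0.0769. In THP1 at 1 against 0 ug/ml MYC ranged from -0.0524 to 0.0026, MXD3 from -0.104 to 0.2569, MNT from -0.1431 to 0.1686 and MLX from -0.0523 to 0.0287. Between B11 and THP1, MXI1 ranged from -0.1318 to 0.0666 at 0 ug/ml, MAX from -0.1945 to 0.0706 at 1 ug/ml, MXD1 from -0.1892 to 0.1708 and MXD3 from -0.0345 to 0.2446 at 10 ug/ml.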
